A study of Mus musculus with 9 samples.

Results

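A set of 8 antimicrobial protein genes was followed along the mouse epididymis, the coiled duct in which sperm mature and are stored. They were lactoferrin (Ltf), the calprotectin subunits S100a8 and S100a9, cathelicidin (Camp), neutrophilic granule protein (Ngp), lysozyme 1 (Lyz1), secretory leukocyte protease inhibitor (Slpi) and the polymeric immunoglobulin receptor (Pigr). The 8 were picked by name, with their levels in these libraries already known, out of 24059 genes counted. Their levels are therefore described without a test, and tests are given only for other genes. All 8 were in the file, and 3 of them (Ltf, S100a8 and Lyz1) had enough counts to enter the fit across 14168 genes, while S100a9, Camp, Ngp, Slpi and Pigr did not.

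These proteins defend mucosal surfaces in different ways. Lactoferrin binds iron and keeps it from microbes, calprotectin is a dimer of S100A8 and S100A9 that sequesters zinc and manganese, cathelicidin peptides disrupt membranes, and lysozyme cuts peptidoglycan in bacterial walls. SLPI inhibits serine proteases of leukocytes, and the polymeric immunoglobulin receptor carries IgA across epithelia. Several of the genes are best known from neutrophil granules or cytosol, and several are also made by glandular epithelium.

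RNA came from the cauda (the distal storage segment), the corpus (the middle segment) and the caput (the proximal segment) of wild type C57BL/6J mice aged 9 months, with 3 libraries per segment. No group carried a transgene or a treatment in the labels, and separate animals, pooling of animals and removal of sperm are not stated for any library in the sources used here. The p-values below therefore measure the spread between these libraries only. Counts assigned to genes ran from 2600061 to 6076479 per library, so that 1 count stood for 0.155 to 0.374 CPM (counts scaled by TMM library size). The segment labels were checked against a known regional gene: Gpx5, a secreted glutathione peroxidase of the proximal duct, had 306 ± 44.8 CPM in cauda, 23.2 ± 4.76 CPM in corpus and 48958 ± 2571 CPM in caput.

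Across the 8 genes, Ltf was abundant in cauda and corpus and close to 0 in caput, S100a8 was well above 0 in cauda alone with S100a9 following at a low level, Lyz1 was present at a similar low level in every segment, and Camp, Ngp, Slpi and Pigr were at or near the limit of detection everywhere. In cauda the mean RPKM (reads scaled by gene length and depth, used here to compare genes) ran from 592 for Ltf through 64.8 for S100a8, 5.62 for Lyz1 and 2.22 for S100a9 to 0.167 for Slpi, 0.0488 for Camp, 0.0305 for Pigr and 0 for Ngp. The libraries of neighbouring genes in that order did not overlap down to S100a9 and Slpi, and overlapped below that. Over the 9 libraries the members had 91687 (Ltf), 818 (S100a8), 485 (Lyz1), 39 (S100a9), 19 (Slpi), 13 (Pigr), 4 (Camp) and 1 (Ngp) counts in all. Counting members that were at least 2-fold apart with no overlap between libraries and at least 10 counts in the higher segment, 2 of 8 (S100a8 and S100a9) were higher in cauda than in corpus, 3 of 8 (these and Ltf) were higher in cauda than in caput, and 1 of 8 (Ltf) was higher in corpus than in caput. Among all genes with 10 counts the same criterion took 8.62%, 13.9% and 13.4% in those comparisons, and nothing is read from the members' counts, since their levels were known when they were picked. No member was lower by this criterion in cauda than in corpus, in cauda than in caput or in corpus than in caput, against 6.97%, 13% and 14.9% of all genes with 10 counts. Of the 8 members, only 5, 4 and 3 had 10 counts in these comparisons, and the others could not meet the criterion in either direction.

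**Figure D1:**
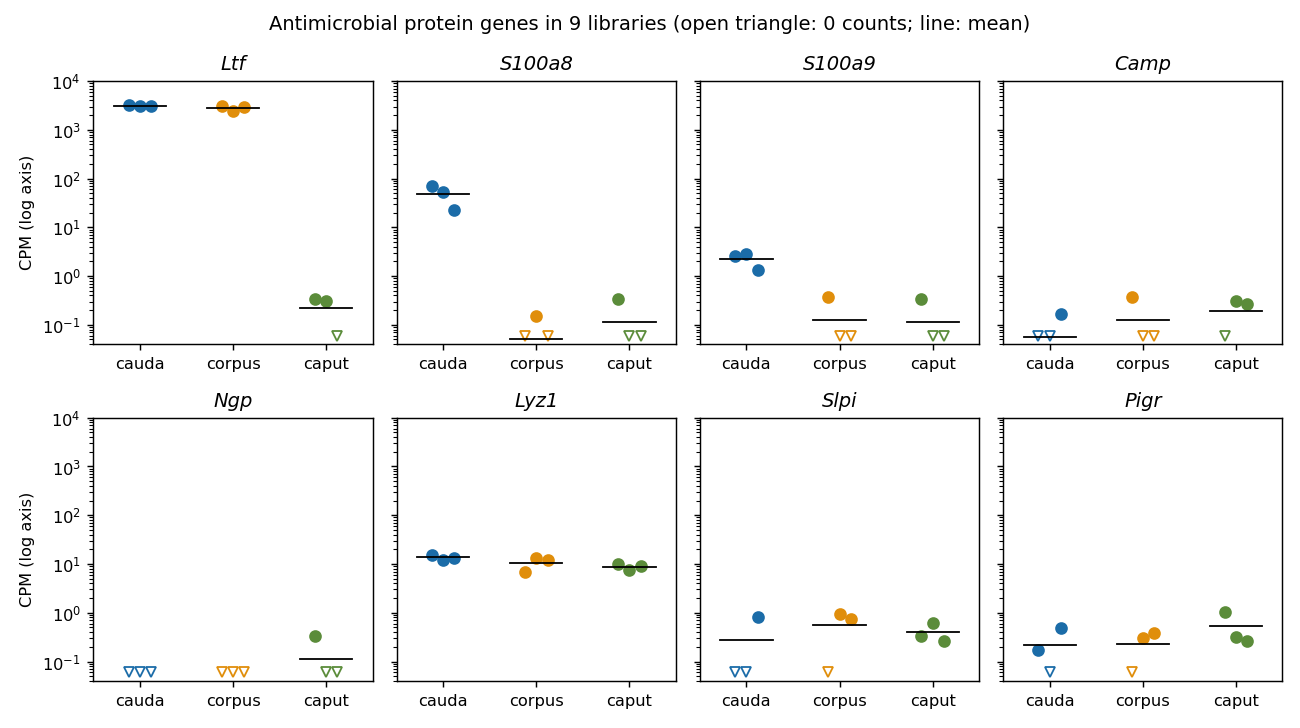
CPM (log axis) of the 8 antimicrobial protein genes in each library of cauda, corpus and caput, with the segment mean as a line and an open triangle for a library with 0 counts. Ltf lies at or above 2409 CPM in all cauda and corpus libraries and at or under 0.338 CPM in caput, S100a8 and S100a9 stand above 1 CPM in cauda libraries only, and Lyz1 stays between 6.74 and 15.4 CPM in every library.

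Lactoferrin was among the most abundant messages of the distal duct. Ltf lies at chr9:111019271-111042767 on the plus strand of mm10 and has 17 exons. It had 19136, 15067 and 18336 counts in cauda, 8387, 15535 and 15224 counts in corpus, and 1, 1 and 0 counts in caput. Cauda and corpus libraries overlapped in level, and every one of them was far above every caput library. On the depth-scaled level, Ltf had 3269, 3016 and 3038 CPM in the cauda libraries, against 3141, 2409 and 2867 CPM in the corpus libraries. The mean was 3108 ± 140.2 CPM in cauda and 2806 ± 369.8 CPM in corpus (SD, n = 3 each), and the libraries overlapped. By summed counts over summed library sizes, the ratio of cauda to corpus was 1.15. By mean CPM it ranked 17 in cauda and 16 in corpus among all genes, and it took 0.307% ± 0.015 of gene counts in cauda and 0.288% ± 0.0336 in corpus. By RPKM it ranked 38 in cauda and 41 in corpus.

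The 2 caput counts set the size of the segment difference. Against them, Ltf was 15493-fold higher in cauda (95% counting interval 4289 to 127932) and 13508-fold higher in corpus (3739 to 111546). These intervals cover counting error only. Without caput replicate 3, which had no Ltf count, the log2 ratios were 13.23 for cauda and 13.03 for corpus, against 13.92 and 13.72 with all libraries, and they were at most 14.41 and 14.21 with any other library left out. None of the 2708 windows of 36 bases (the read length) in the Ltf transcript occurs in another annotated gene, so no other annotated transcript shares its sequence at that length. In bulk tissue, fewer cells that make a message and less of it per cell cannot be told apart, here or for any gene below.

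The Ltf promoter is printed because the change in Ltf is the widest among the 8 genes, and it is shown from 250 bases before to 30 after the start annotated by RefSeq, at chr9:111019042-111019321 on the plus strand of GRCm38.p6. Capitals mark matches to motifs searched on both strands in the window reaching 50 bases after the start.
Ltf: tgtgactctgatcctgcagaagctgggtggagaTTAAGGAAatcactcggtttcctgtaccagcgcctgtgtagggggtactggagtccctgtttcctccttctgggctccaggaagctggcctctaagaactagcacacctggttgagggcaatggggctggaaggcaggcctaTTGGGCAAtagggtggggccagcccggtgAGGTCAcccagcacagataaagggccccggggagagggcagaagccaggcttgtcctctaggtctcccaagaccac
The C/EBP motif TTNNGNAA matched at -217 and -75 from the start, and the nuclear receptor motif AGGTCA at -46, where 40.7% and 16.3% of the 32851 mouse promoters in the RefSeq table hold these letters. The TATA motif TATAAA (in 13.6% of promoters), the NF-kB motif (1.63%), the palindromic oestrogen receptor motif (0.07%), the androgen and glucocorticoid receptor motif TGTTCT (19% of promoters) and its palindromic form (0.00913%) were not found in this window. Promoters of all 8 genes were in the table, and 6 of the 8 held TTNNGNAA. A match is a description of the letters and says nothing of binding.

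The closest patterns to Ltf over the 9 libraries, by Pearson correlation of log2(CPM + 1), were those of Defb28 (r = 0.999), Cwh43 (r = 0.999) and Gpr82 (r = 0.999). Defb28, a beta-defensin, had 1790 ± 129.7 CPM in cauda, 1497 ± 92.0 CPM in corpus and 3.18 ± 0.839 CPM in caput. Cwh43, which remodels GPI anchors, had 885 ± 23.1 CPM in cauda, 1069 ± 50.4 CPM in corpus and 0 counts in caput. Of 5662 genes compared, 484 had r over 0.95, and the 9 points share 3 segments and their depth, so that such values describe a common division of caput from the distal duct. The nearest neighbours of Ltf on the chromosome did not share its level: Ccrl2, 11719 bases away, had 12.8 ± 2.69 CPM in cauda, 4.88 ± 0.667 CPM in corpus and 2.26 ± 0.976 CPM in caput, while Rtp3 and Lrrc2 had mean levels under 1 CPM in each segment.

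Genes that handle iron beside lactoferrin were arranged differently along the duct, and the most abundant iron-sequestering message of the caput was Lcn2. Of 14 tested genes for iron binding and uptake, 1 was higher and 3 were lower in cauda than in corpus, 3 were higher and 6 lower in cauda than in caput, and 4 were higher and 5 lower in corpus than in caput (edgeR quasi-likelihood test, Benjamini-Hochberg adjusted p under 0.05). Over all genes the same test called 39.2% in cauda against corpus (18.8% higher, 20.4% lower), 54.7% in cauda against caput (27.5% higher, 27.2% lower) and 57.7% in corpus against caput (29.5% higher, 28.2% lower). The list's median log2 change was -0.04, -0.24 and -0.22, against -0.0064, 0.0059 and 0.0048 over all genes. Leaving out cauda replicate 3 or corpus replicate 2 made the single higher call in cauda against corpus 2 and 3 genes.

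Lcn2, which binds bacterial siderophores and so withholds iron, had 154, 139 and 161 CPM in cauda, 115, 113 and 111 CPM in corpus, and 4113, 3928 and 4487 CPM in caput. All caput libraries were far above all others. In RPKM the caput mean of Lcn2, 2677, was above the cauda mean of Ltf, 592. Lcn2 fell by 4.78 in cauda relative to caput on the log2 scale (SE 0.09, edgeR adjusted p = 1.51e-13) and by 5.21 in corpus relative to caput (SE 0.09, adjusted p = 8.73e-14). Between cauda and corpus it was higher in cauda by a log2 change of 0.42 (SE 0.08, adjusted p = 0.00129).

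The transferrin system did not move as a block. Trf, the serum iron carrier and a relative of lactoferrin, had 7.29 ± 2.73 RPKM in cauda, 7.16 ± 3.32 RPKM in corpus and 30.6 ± 5.70 RPKM in caput. It was lower than in caput in both distal segments, with a log2 change of -2.0 in cauda (SE 0.27, edgeR adjusted p = 3.26e-05) and -1.91 in corpus (SE 0.27, adjusted p = 4.92e-05). Tfrc, the transferrin receptor, was highest in corpus: it had 107, 111 and 116 CPM in cauda, 189, 163 and 210 CPM in corpus, and 52.3, 58.0 and 69.4 CPM in caput, with no overlap between segments. Its log2 change was -0.75 in cauda relative to corpus (SE 0.11, edgeR adjusted p = 8.61e-05) and 1.64 in corpus relative to caput (SE 0.12, adjusted p = 4.67e-08). The iron exporter Slc40a1 was also highest in corpus, with 5.96 ± 2.16 CPM in cauda, 20.8 ± 3.05 CPM in corpus and 10.4 ± 1.74 CPM in caput. The importer Slc11a2 was lower in cauda (50.9 ± 1.93 CPM) than in corpus (102 ± 11.2 CPM) and caput (112 ± 6.39 CPM), by log2 changes of -1.0 and -1.14 (SE 0.09 each, edgeR adjusted p = 1.69e-06 and 2.55e-07). Ferritin heavy chain, Fth1, varied little by comparison, with 1109 ± 15.7 CPM in cauda, 993 ± 42.0 CPM in corpus and 861 ± 29.1 CPM in caput.

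**Figure D2:**
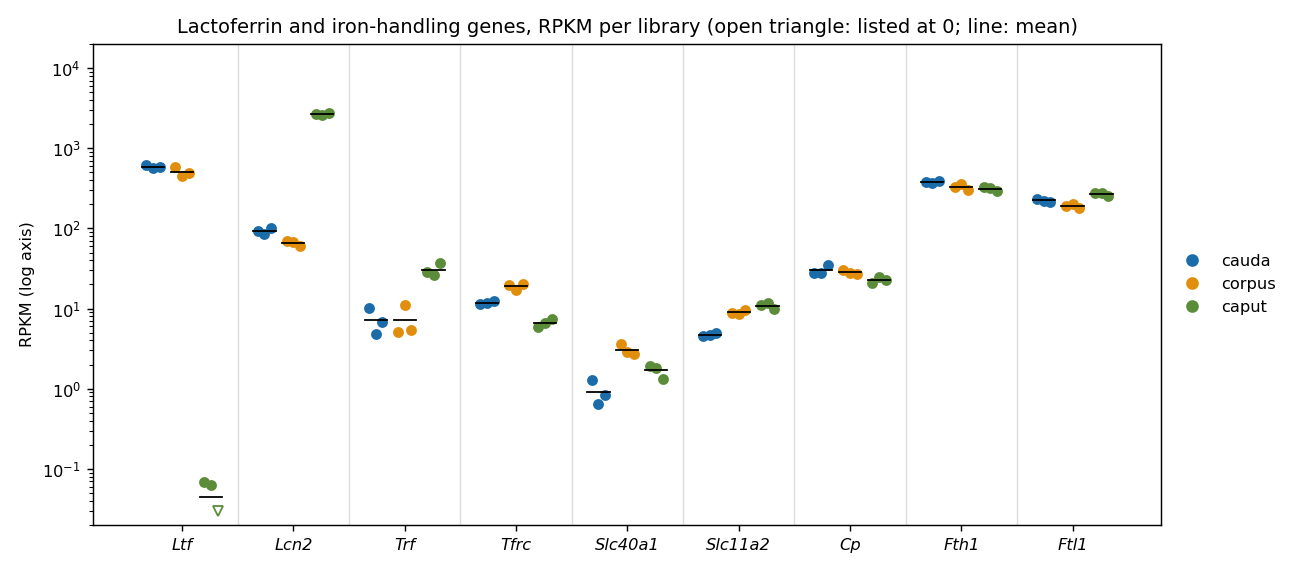
RPKM per library (log axis) of lactoferrin and 8 iron-handling genes in cauda, corpus and caput, with the mean as a line and an open triangle for a library listed at 0. Ltf is high in cauda and corpus and Lcn2 in caput (2677 RPKM on average), Tfrc and Slc40a1 are highest in corpus, and the ferritin chains Fth1 and Ftl1 lie close together in all segments.

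Calprotectin message was found in cauda, and its subunits were far from equal there. S100a8 (chr3:90668978-90670035, plus strand) had 420, 259 and 137 counts in cauda, 0, 1 and 0 counts in corpus, and 1, 0 and 0 counts in caput. S100a9 (chr3:90692632-90695721, minus strand, 22597 bases from S100a8) had 15, 14 and 8 counts in cauda, 1, 0 and 0 counts in corpus, and 1, 0 and 0 counts in caput. For both genes every cauda library was above every corpus and caput library.

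The cauda libraries differed more from each other in S100a8 than in Ltf. S100a8 stood at 71.7, 51.8 and 22.7 CPM in cauda replicates 1 to 3, a mean of 48.8 ± 24.7 CPM (SD, n = 3) and a coefficient of variation of 50.6%, against 4.51% for Ltf in the same libraries. S100a9 stood at 2.56, 2.80 and 1.33 CPM, a mean of 2.23 ± 0.792 CPM. Replicate 3 was the lowest for both subunits. Against the 1 count in corpus, S100a8 was 697-fold higher in cauda (95% counting interval 125 to 27575), and against the 1 count in caput it was 481-fold higher (86.1 to 19031). For S100a9 the ratios were 31.6 (5.33 to 1282) against corpus and 21.8 (3.68 to 885) against caput. These ratios rest on single reads: without corpus replicate 2, which held the corpus count of S100a8, its log2 ratio of cauda to corpus was 7.01 in place of 9.45, and without caput replicate 1 its log2 ratio of cauda to caput was 6.82 in place of 8.91, both as lower bounds. Likewise the log2 ratio of S100a9 was 3.10 in place of 4.98 for cauda to corpus without corpus replicate 1, and 2.35 in place of 4.45 for cauda to caput without caput replicate 1.

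Per unit of length, S100a8 exceeded S100a9 by 37.4, 24.7 and 22.9 times in the 3 cauda libraries. S100a8 had 95.6, 68.1 and 30.7 RPKM in cauda, a mean of 64.8 ± 32.6 RPKM that ranked 489 among all genes. S100a9 had 2.55, 2.75 and 1.34 RPKM, a mean of 2.22 ± 0.765 RPKM that ranked 9606. In counts, S100a8 made up 96.6%, 94.9% and 94.5% of the reads of the pair. No window of 36 bases in either transcript occurs in another gene, so neither shares sequence of that length with a copy.

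The promoters of the calprotectin pair are printed because both genes had their counts in cauda, on the same build and over the same window as for Ltf, at chr3:90668821-90669100 (plus strand) for S100a8 and chr3:90695692-90695971 (minus strand) for S100a9. Capitals mark the same motifs.
S100a8: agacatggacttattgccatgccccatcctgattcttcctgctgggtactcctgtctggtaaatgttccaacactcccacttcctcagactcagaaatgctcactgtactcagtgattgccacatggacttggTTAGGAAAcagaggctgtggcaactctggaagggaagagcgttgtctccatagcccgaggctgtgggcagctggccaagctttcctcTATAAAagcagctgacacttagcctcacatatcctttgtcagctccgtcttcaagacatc
S100a9: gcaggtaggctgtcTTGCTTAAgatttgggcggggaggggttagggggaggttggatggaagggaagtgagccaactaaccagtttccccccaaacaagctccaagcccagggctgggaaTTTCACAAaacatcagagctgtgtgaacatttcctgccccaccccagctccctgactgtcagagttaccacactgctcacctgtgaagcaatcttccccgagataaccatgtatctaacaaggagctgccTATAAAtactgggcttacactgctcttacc
TATAAA matched at -30 in S100a8 and at the annotated start itself in S100a9. Offsets count from the RefSeq start, which for S100a8 and Ltf lies inside the gene coordinates given above, from GENCODE M21. The TATAAA of S100a8 thus lies after the GENCODE start of that gene. TTNNGNAA matched at -117 in S100a8 and, on the other strand, at -236 and -130 in S100a9. Neither window held the NF-kB motif or the receptor motifs named above.

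Other members of the S100 family, small calcium-binding proteins, were widely expressed, and S100a14 was much higher in cauda than elsewhere. Of 11 tested genes of the S100 list, which leaves out the calprotectin pair, 4 were higher and 1 lower in cauda than in corpus, 6 were higher and 2 lower in cauda than in caput, and 6 were higher and 3 lower in corpus than in caput (edgeR adjusted p under 0.05, background as above). The list also held S100pbp, which encodes a binding protein and not an S100 protein. Median log2 changes were 0.43, 0.61 and 0.51. Without cauda replicate 1 or corpus replicate 2 the lower calls in cauda against caput numbered 1, and without cauda replicate 3 or corpus replicate 2 those in cauda against corpus numbered 2.

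S100a14, an epithelial S100 protein, had 124, 120 and 102 CPM in cauda, 12, 14.6 and 9.42 CPM in corpus, and 4.73, 7.17 and 8.18 CPM in caput. It rose in cauda by a log2 change of 3.25 relative to corpus (SE 0.15, edgeR adjusted p = 3.59e-09) and 4.07 relative to caput (SE 0.18, adjusted p = 4.2e-10). Its level in cauda, 54.9 ± 5.09 RPKM, was close to that of S100a8 (64.8 ± 32.6 RPKM), but unlike S100a8 it was counted in every corpus and caput library. S100a6, a calcium sensor whose gene lies 44797 bases from S100a8, was 119 ± 10.2 CPM in cauda, 57.5 ± 22.3 CPM in corpus and 33.8 ± 7.75 CPM in caput, with log2 changes of 1.0 against corpus (SE 0.20, edgeR adjusted p = 0.00144) and 1.81 against caput (SE 0.22, adjusted p = 1.33e-05). S100a7a, the gene next to S100a8, had 0 counts in cauda and caput and 6 counts over the corpus libraries.

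Other family members had other orders. S100a11 was highest in corpus, at 145 ± 3.25 CPM in cauda, 205 ± 7.96 CPM in corpus and 130 ± 6.44 CPM in caput. S100a1 was lowest in corpus, at 71.0 ± 5.79 CPM in cauda, 23.5 ± 5.20 CPM in corpus and 80.0 ± 3.89 CPM in caput, a log2 change of 1.58 in cauda relative to corpus (SE 0.13, edgeR adjusted p = 8.57e-07). S100b, best known from glia, was highest in caput, at 0.90 ± 0.525 CPM in cauda, 0.258 ± 0.448 CPM in corpus and 15.4 ± 3.02 CPM in caput, and its log2 change was -4.08 in cauda relative to caput (SE 0.45, adjusted p = 4.71e-06).

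**Figure D3:**
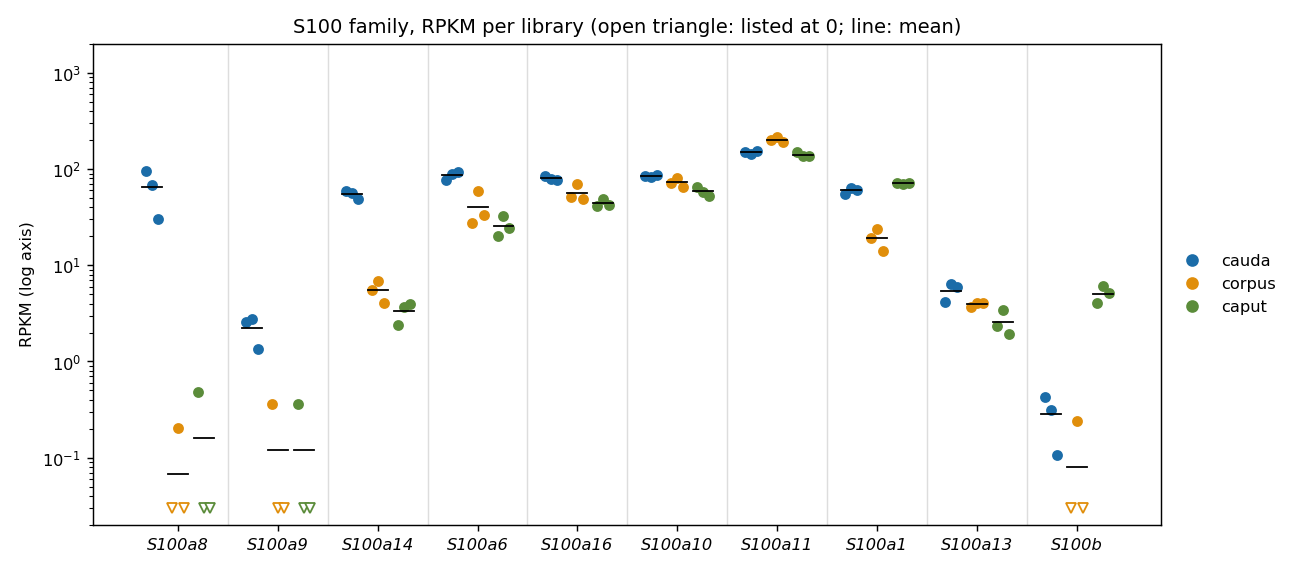
RPKM per library (log axis) of the calprotectin genes S100a8 and S100a9 and 8 other S100 genes in cauda, corpus and caput, with the mean as a line and an open triangle for a library listed at 0. S100a8 spans 30.7 to 95.6 RPKM in cauda against 1.34 to 2.75 RPKM for S100a9, and S100a14 is likewise highest in cauda but is present in all segments.

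No tested receptor or signalling gene through which extracellular calprotectin is known to act was called higher in cauda with all libraries in the fit. Of 9 tested genes of this list, none was called in cauda against corpus, 2 were lower and none higher in cauda than in caput, and 4 were lower and none higher in corpus than in caput by edgeR's adjusted p. The median log2 changes were 0.29, 0.22 and -0.27. At an unadjusted p under 0.05, 2 were higher and 1 lower in cauda than in corpus, 1 was higher in cauda than in caput and 0 were higher in corpus than in caput, and DESeq2 also called 0 in each of these. Tlr4, the main calprotectin receptor on myeloid cells, had 4.30 ± 0.592 CPM in cauda, 2.63 ± 0.744 CPM in corpus and 7.07 ± 2.36 CPM in caput. Its adaptor Myd88 had 35.2 ± 2.78, 42.0 ± 8.02 and 64.1 ± 2.84 CPM in cauda, corpus and caput and was lower in cauda than in caput by a log2 change of -0.87 (SE 0.12, edgeR adjusted p = 4.93e-05). Bsg, a binding partner of S100A9, was lower in cauda (235 ± 8.11 CPM) than in caput (389 ± 14.5 CPM), with a log2 change of -0.73 (SE 0.07, adjusted p = 1.32e-06). Without corpus replicate 3, 3 genes were higher in cauda than in caput and 2 in corpus than in caput. Without cauda replicate 2, corpus replicate 2 or caput replicate 2, 1 gene was higher in cauda than in caput, and without corpus replicate 2 or corpus replicate 1, 1 gene was higher or lower in cauda than in corpus.

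The patterns most like that of S100a8 over the 9 libraries, by Pearson correlation of log2(CPM + 1), were those of Mdh1 (r = 0.99), Gm5615 (r = 0.989) and Klf15 (r = 0.988), and 68 of 5663 genes had r over 0.95. Gm5615 had 77.7 ± 4.89 CPM in cauda and 0 counts in corpus and caput. Mdh1, cytosolic malate dehydrogenase, had 492 ± 37.9 CPM in cauda, 287 ± 7.03 CPM in corpus and 293 ± 13.5 CPM in caput, so likeness here means a common order of segments and not a like size of difference.

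Camp and Ngp, neutrophil granule genes of the cathelin family, were barely detected. Camp (chr9:109847379-109849617, minus strand) had 0, 0 and 1 counts in cauda, 1, 0 and 0 in corpus, and 0, 1 and 1 in caput. Ngp (chr9:110419747-110423012, plus strand) had no count in cauda or corpus and 1, 0 and 0 counts in caput. A total of 3 counts over a segment corresponds to 0.178 CPM in cauda, 0.208 CPM in corpus and 0.301 CPM in caput, and no segment passed it for either gene, so no ratio is given. With 0 counts, the exact 95% upper limit for Ngp was 0.218 CPM in cauda and 0.256 CPM in corpus, for counting error only. A gene near Camp was abundant: Spink8, an epididymal protease inhibitor 20746 bases from Camp, had 4484 ± 54.5 CPM in cauda, 5865 ± 515 CPM in corpus and 712 ± 60.0 CPM in caput.

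Several neutrophil markers had no counts, others were counted, and the list as a whole was not highest where S100a8 was. Of 18 neutrophil markers listed, 17 were in the file, which had no entry named Ly6g. Of these 17, 5 had 0 counts in all 9 libraries: Mpo and Elane, which encode defining granule enzymes, and Stfa2, Stfa3 and Stfa2l1. Mpo, Stfa2 and Stfa2l1 share 14%, 28.9% and 36.5% of 36-base windows with other genes. How such reads were counted is not given, so the zeros of these genes are uncertain. Elane and Stfa3 share no such window. The summed level of the list was 21.2 to 28.2 CPM in cauda, 44.2 to 50.8 CPM in corpus and 7.80 to 12.5 CPM in caput. In cauda replicates 1 to 3 it was 28.2, 26.4 and 21.2 CPM where S100a8 was 71.7, 51.8 and 22.7 CPM, and the part of neutrophils in the cauda values was not tested beyond these levels.

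In cauda and corpus most of the summed level came from 1 gene that had no count in caput. The differences of the sum between segments are therefore largely those of this gene. Cd177, a neutrophil surface protein, had 17.6, 17.6 and 12.8 CPM in cauda, 31.5, 35.4 and 38.4 CPM in corpus, and 0 counts in every caput library. It was at least 52.7-fold higher in cauda and at least 119-fold higher in corpus than in caput, taking 3 counts over the caput libraries as its level there. In cauda it was lower than in corpus by a log2 change of -1.15 (SE 0.16, edgeR adjusted p = 0.000165). Mmp9, the other tested marker, had 5.52 ± 1.01 CPM in cauda, 5.84 ± 1.30 CPM in corpus and 3.94 ± 1.86 CPM in caput and was not called in any of the 3 comparisons, although it was higher in cauda and in corpus than in caput without caput replicate 1. Ctsg, a granule protease, was counted 2 times in cauda, 33 times in corpus and 0 times in caput. The neutrophil list thus had 0 genes higher and 1 lower in cauda against corpus, and 1 higher and 0 lower in cauda and in corpus against caput, of 2 tested, and the counts of 0 were also 0 at an unadjusted p under 0.05 and with DESeq2. Without caput replicate 2, 1 gene was lower in cauda and in corpus than in caput.

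Markers of other cells differed in their own ways between the segments. The summed macrophage list (11 genes) was 182 to 254 CPM in cauda, 151 to 201 CPM in corpus and 274 to 300 CPM in caput, and 4 of its genes were lower in cauda and 5 lower in corpus than in caput, and 0 were higher (at an unadjusted p under 0.05, 1 in cauda and 0 in corpus, and 0 with DESeq2). Csf1r, the receptor for a macrophage growth factor, had 27.6 ± 5.73 CPM in cauda, 20.5 ± 4.43 CPM in corpus and 46.3 ± 6.08 CPM in caput, a log2 change of -0.74 in cauda relative to caput (SE 0.17, edgeR adjusted p = 0.00251). In cauda against corpus 1 macrophage gene was higher. That count was 0 without cauda replicate 1 or corpus replicate 1, 3 without cauda replicate 2, 2 without cauda replicate 3 and 4 without corpus replicate 2, and 1 gene was higher in cauda than in caput without cauda replicate 2 or corpus replicate 3. The T cell list was 8.61 to 10.9 CPM in cauda, 3.74 to 9.79 CPM in corpus and 9.67 to 12.1 CPM in caput. Keratinizing epithelium, which makes abundant calprotectin, had a summed marker level of 9.61 to 11.3 CPM in cauda, 8.61 to 9.98 CPM in corpus and 11.3 to 13.8 CPM in caput. Of 9 red cell markers, 6 had 0 counts in every library, but globin transcripts share much of their sequence with copies (70.3% of 36-base windows for Hba-a1 and 66.6% for Hbb-bs), and how such reads were counted is not given, so these zeros are uncertain. Alas2, the only 1 tested, had 3.75 ± 0.733 CPM in cauda, 23.0 ± 0.728 CPM in corpus and 1.86 ± 0.734 CPM in caput.

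Accessory gland markers, like S100a8, were highest in cauda. Their summed level, over 8 genes, was 182 to 249 CPM in cauda, 0.465 to 1.88 CPM in corpus and 0 in caput. Most of the cauda sum came from Svs1, and Pbsn had 0 counts in every library. Svs1, a seminal vesicle secretory protein, had 169, 236 and 200 CPM in cauda, 0.374, 0.31 and 1.88 CPM in corpus, and 0 counts in caput, and was higher in cauda than in corpus by a log2 change of 7.76 (SE 0.29, edgeR adjusted p = 4.06e-09). Among the cauda libraries Svs1 was lowest in replicate 1, where S100a8 was highest. Svs4 had the same order as S100a8 over a narrower range, with 6.83, 6.2 and 5.97 CPM in cauda replicates 1 to 3. Svs2 was highest in cauda replicate 3, at 3.65 CPM. These markers thus had no common order among the cauda libraries. Of 3 tested markers, all 3 were higher in cauda than in corpus and than in caput. Their part in the calprotectin levels was not tested.

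**Figure D4:**
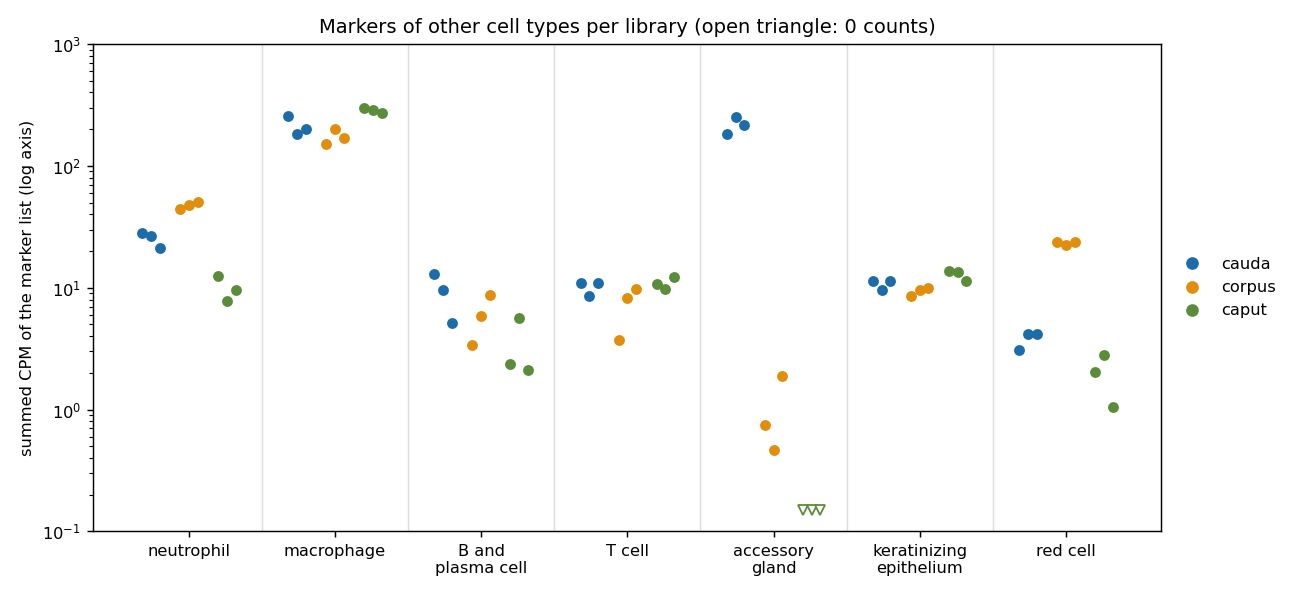
Summed CPM per library (log axis) of marker lists for 7 other cell types in cauda, corpus and caput, with an open triangle for a library with 0 counts. The neutrophil sum is highest in corpus (44.2 to 50.8 CPM, mostly Cd177), the macrophage sum in caput (274 to 300 CPM), and the accessory gland sum in cauda (182 to 249 CPM, mostly Svs1).

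Lyz1 was the only one of the 8 genes counted in every library. It lies at chr10:117287797-117292868 on the minus strand, 5476 bases from Lyz2, the lysozyme of macrophages, while Lyz1 is the form known from Paneth cells of the gut. Lyz1 had 90, 60 and 81 counts in cauda, 18, 84 and 64 counts in corpus, and 29, 24 and 35 counts in caput. In depth-scaled terms the libraries were at 15.4, 12 and 13.4 CPM in cauda, 6.74, 13 and 12.1 CPM in corpus, and 9.79, 7.49 and 9.24 CPM in caput. The cauda libraries did not overlap those of caput, and the corpus libraries overlapped both. The means were 13.6 ± 1.69 CPM in cauda, 10.6 ± 3.38 CPM in corpus and 8.84 ± 1.20 CPM in caput (SD, n = 3 each). By summed counts over summed library sizes, cauda was 1.19 times corpus (95% counting interval 0.97 to 1.46) and 1.55 times caput (1.21 to 2.0).

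Lyz1 and Lyz2 are close copies, which limits what 36-base reads can tell. Of 1228 such windows in the Lyz1 transcript, 350 (28.5%) also occur in Lyz2, and how the authors assigned reads with several matches is not given in the sources used here. Their coding sequences have 444 bases each and differ at 22, an identity of 95%, and 134 of 409 coding windows are the same in both. The 36 bases from coding position 97 to 132, from the GENCODE M21 transcripts, are printed as a stretch in which a read tells the genes apart, with the differing bases in capitals.
Lyz1: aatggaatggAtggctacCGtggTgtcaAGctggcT
Lyz2: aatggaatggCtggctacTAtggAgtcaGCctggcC
This stretch holds 7 differences.

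Lyz2 was the higher of the pair in every library. It had 27.7, 19.4 and 22.9 RPKM in cauda, 15.3, 26.4 and 24.5 RPKM in corpus, and 21.1, 27.2 and 20.7 RPKM in caput, where Lyz1 had 6.35, 4.89 and 5.62, 2.71, 5.29 and 4.48, and 4.31, 3.31 and 3.85 RPKM. The segments overlapped for Lyz2, and edgeR called it in none of the 3 comparisons (adjusted p = 0.893 for cauda against corpus, 0.691 for cauda against caput, 0.577 for corpus against caput). The ratio of Lyz1 to Lyz2 in RPKM was 0.242 ± 0.0116 in cauda, 0.187 ± 0.0119 in corpus and 0.17 ± 0.0433 in caput (SD, n = 3 each), with all cauda libraries above all others. When the counts of both genes were summed, the log2 ratio of cauda to caput was 0.21, against 0.63 for Lyz1 alone. Corpus replicate 1 was the lowest corpus library for both genes, at 6.74 CPM for Lyz1 and 31.8 CPM for Lyz2.

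**Figure D5:**
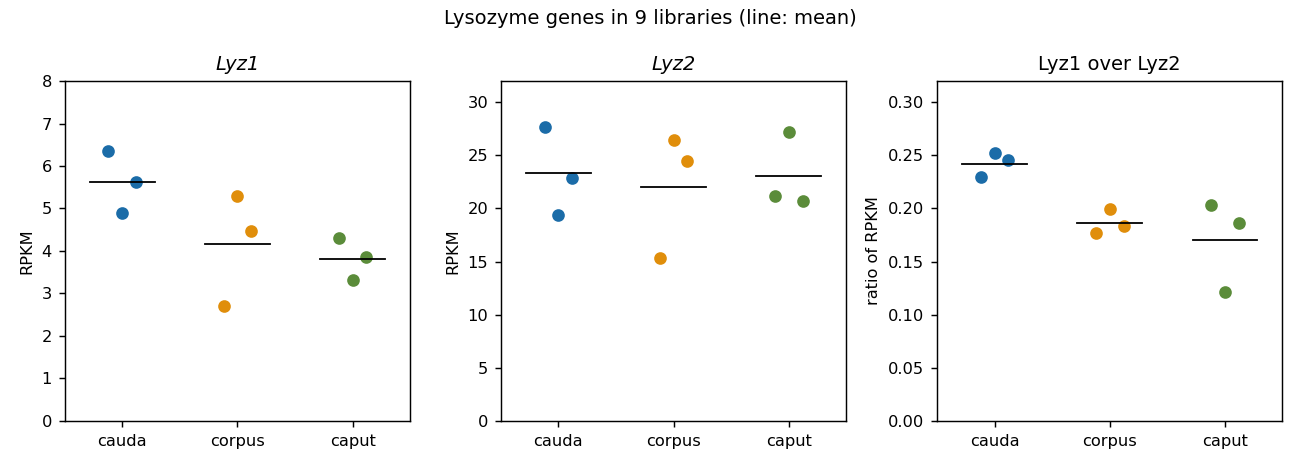
RPKM of Lyz1 and Lyz2 and the ratio of Lyz1 to Lyz2 per library in cauda, corpus and caput, each axis starting at 0 and the mean drawn as a line. Lyz1 is 4.89 to 6.35 RPKM in cauda and 3.31 to 4.31 RPKM in caput, Lyz2 overlaps between all segments, and the ratio is highest in cauda (0.229 to 0.252).

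The expression most like that of Lyz1 was that of Sik1 (r = 0.955), Cd74 (r = 0.894) and H2-Ab1 (r = 0.869), the last 2 being parts of antigen presentation by MHC class II. Only Sik1 exceeded r = 0.95 among 5663 genes. Cd74 had 193 ± 24.4 CPM in cauda, 132 ± 30.4 CPM in corpus and 114 ± 7.25 CPM in caput. Like Lyz1, Cd74 and H2-Ab1 were lowest among corpus libraries in replicate 1, at 102 and 39.7 CPM. Of the other lysozyme-like genes, which are known from sperm and testis, Lyzl4 rose distally, with 7.17, 6.60 and 6.30 CPM in cauda, 2.62, 3.88 and 3.95 CPM in corpus, and 0.338, 0.312 and 0.528 CPM in caput. It was 16.7 times higher in cauda than in caput (log2 change 3.97, SE 0.39, edgeR adjusted p = 1.68e-06) and 1.82 times higher in cauda than in corpus (log2 change 0.88, SE 0.24, adjusted p = 0.00979, a call that DESeq2 did not make). Lyzl4 was the 1 of 2 tested genes of the lysozyme list called higher in each comparison, and 2 of its 7 genes had no count at all.

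A further list covered recognition proteins for bacterial walls and lipopolysaccharide, and it also held the chitinase Chia1. Bpi and Chia1 were highest in caput, while Lbp had its highest mean in corpus. Of 21 genes, 9 had no count in any library and 5 were tested. Among the tested, 2 were higher and 0 lower in cauda than in corpus by edgeR (0 lower also at an unadjusted p under 0.05 and with DESeq2), 1 was higher and 3 lower in cauda than in caput, and 1 was higher and 3 lower in corpus than in caput (median log2 changes 1.0, -0.44 and -0.88). Bpi, which binds and neutralizes lipopolysaccharide, had 14.9, 15 and 17.9 CPM in cauda, 0, 0.155 and 0.753 CPM in corpus, and 210, 211 and 250 CPM in caput. It was lower in cauda than in caput by a log2 change of -3.81 (SE 0.13, edgeR adjusted p = 4.46e-11) and higher in cauda than in corpus by 5.42 (SE 0.35, adjusted p = 6.02e-08). Chia1, an acidic chitinase, had 7, 5 and 1 counts in cauda, 0, 2 and 0 in corpus, and 6, 18 and 16 in caput, and was lower than in caput by log2 changes of -2.33 in cauda (SE 0.58, edgeR adjusted p = 0.0038) and -4.61 in corpus (SE 0.82, adjusted p = 0.000299). Lbp, which presents lipopolysaccharide to Cd14, had 69.5 ± 12.9 CPM in cauda, 89.4 ± 29.5 CPM in corpus and 43.0 ± 8.37 CPM in caput, and its higher call in cauda against caput was lost without cauda replicate 1 or caput replicate 3 (log2 changes 0.56 and 0.55, against 0.71 with all libraries). Without corpus replicate 3 it was called lower in cauda than in corpus, at -0.58.

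Slpi and Pigr were near the limit of detection in all 3 segments. Slpi (chr2:164354070-164389095, minus strand) had 0, 0 and 5 counts in cauda, 0, 6 and 4 in corpus, and 1, 2 and 1 in caput. Its means were 0.276 ± 0.478 CPM in cauda, 0.561 ± 0.494 CPM in corpus and 0.408 ± 0.19 CPM in caput. The libraries overlapped in every comparison, and the counting interval of each ratio spanned 1, at 0.115 to 1.37 for cauda to corpus, 0.159 to 3.72 for cauda to caput and 0.498 to 7.54 for corpus to caput. Matn4, the nearest gene at 298 bases, had 2, 0 and 4 counts in cauda, 0, 1 and 2 in corpus, and 1, 1 and 0 in caput. Svs5, a seminal vesicle gene 19674 bases away, had 4, 8 and 11 counts in cauda, 1, 0 and 0 in corpus and none in caput. Without corpus replicate 1, which had no count, Slpi would be at least 2-fold higher in corpus than in caput with no overlap, making 2 such members in place of 1.

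The message of the best known target protease of SLPI was not counted, and relatives with other roles differed between segments. Elane, which encodes the elastase it inhibits, had 0 counts throughout, and the protein was not measured. Of 5 tested genes in the list, 1 was higher and 1 lower in cauda than in corpus, 3 were higher and 1 lower in cauda than in caput, and 3 were higher and 2 lower in corpus than in caput (median log2 changes 0.33, 1.12 and 0.75). Wfdc2, a WAP domain protein like SLPI, had 2.57 ± 0.602 CPM in cauda, 5.85 ± 0.956 CPM in corpus and 13.7 ± 3.80 CPM in caput, a log2 change of -2.41 in cauda relative to caput (SE 0.28, edgeR adjusted p = 7.68e-06). Serpinb6b, an intracellular serpin, had 50.6 ± 3.15 CPM in cauda, 29.8 ± 4.24 CPM in corpus and 14.8 ± 1.07 CPM in caput, a log2 change of 1.78 in cauda relative to caput (SE 0.13, adjusted p = 1.05e-07). Without corpus replicate 2, 3 genes were higher in cauda than in corpus, and without corpus replicate 1 or 3 or caput replicate 1 or 2 the lower calls in corpus against caput numbered 1.

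Pigr (chr1:130826684-130852249, plus strand) had 1, 0 and 3 counts in cauda, 0, 2 and 2 in corpus, and 3, 1 and 1 in caput. The means were 0.223 ± 0.253 CPM in cauda, 0.229 ± 0.201 CPM in corpus and 0.529 ± 0.419 CPM in caput, and all segments overlapped. Its receptor relative Fcamr, 11944 bases away, averaged 0.731, 0.707 and 0.568 CPM in cauda, corpus and caput. Igj, the joining chain of polymeric IgA and the only tested marker of B and plasma cells, had 8.88, 7.81 and 3.81 CPM in cauda, 0, 2.48 and 4.52 CPM in corpus, and 2.03, 4.05 and 1.06 CPM in caput. Its higher level in cauda than in caput (log2 change 1.54, SE 0.60, edgeR adjusted p = 0.0462) was not called without any 1 of cauda replicates 1 and 2 and caput replicates 1 and 3.

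The machinery that moves the receptor across an epithelial cell was expressed although the receptor was scarcely counted. Of 14 tested genes of this transport list, 3 were higher and 3 lower in cauda than in corpus, 5 were higher and 6 lower in cauda than in caput, and 4 were higher and 6 lower in corpus than in caput (median log2 changes 0.28, -0.12 and -0.36). Rab17, an epithelial GTPase of transcytosis, had 75.3, 79.7 and 83.0 CPM in cauda, 63.7, 52.4 and 64.4 CPM in corpus, and 4.05, 2.18 and 1.58 CPM in caput. It rose by a log2 change of 4.96 in cauda relative to caput (SE 0.20, edgeR adjusted p = 1.52e-10) and 4.55 in corpus relative to caput (SE 0.21, adjusted p = 4.68e-10). Myo5b, the motor of apical recycling, ran the other way, with 106 ± 20.7 CPM in cauda, 181 ± 33.9 CPM in corpus and 501 ± 69.9 CPM in caput, a log2 change of -2.24 in cauda relative to caput (SE 0.16, adjusted p = 4.81e-08). Ccl28, which draws IgA plasma cells to mucosa, had 1.19 ± 0.187 CPM in cauda, 1.06 ± 0.756 CPM in corpus and 12.9 ± 3.79 CPM in caput (log2 change -3.41 in cauda relative to caput, SE 0.36, adjusted p = 3.58e-06). Without cauda replicate 1 or 2 the higher calls in cauda against caput numbered 3, and without corpus replicate 2 those in cauda against corpus numbered 5.

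Regulators and inducers known for these genes in other tissues split between segments. Of 21 tested, 8 were higher and 4 lower in cauda than in corpus, 7 were higher and 7 lower in cauda than in caput, and 6 were higher and 9 lower in corpus than in caput (median log2 changes 0.30, -0.10 and -0.26). Il1r1, the receptor of interleukin 1, which induces calprotectin in epithelia, had 71.7, 68.0 and 85.8 CPM in cauda, 20.6, 20.6 and 15.3 CPM in corpus, and 37.5, 32.8 and 28.2 CPM in caput. It rose in cauda by a log2 change of 2.01 relative to corpus (SE 0.14, edgeR adjusted p = 1.47e-07) and 1.21 relative to caput (SE 0.14, adjusted p = 6.41e-06).

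Other regulators followed the order of Ltf or neither order. Prlr, the prolactin receptor, had 424, 413 and 457 CPM in cauda, 396, 324 and 397 CPM in corpus, and 36.1, 20.3 and 28 CPM in caput, a log2 change of 3.94 in cauda (SE 0.15, edgeR adjusted p = 1.15e-10) and 3.73 in corpus (SE 0.15, adjusted p = 1.86e-10), each relative to caput. Cebpb, a transcription factor that acts at C/EBP motifs, was lower in cauda (21.9 ± 4.03 CPM) and corpus (20.8 ± 7.83 CPM) than in caput (82.4 ± 3.78 CPM), with log2 changes of -1.91 and -1.90 (SE 0.19 each, edgeR adjusted p = 1.55e-06 and 1.69e-06). Cebpd was in the opposite order, at 25.6 ± 5.90 CPM in cauda, 19.7 ± 8.53 CPM in corpus and 9.60 ± 1.39 CPM in caput. The NF-kB subunit Rela was highest in corpus, at 94.5 ± 9.87 CPM in cauda, 196 ± 1.90 CPM in corpus and 70.6 ± 6.12 CPM in caput, as was the epithelial ETS factor Ehf at 230 ± 15, 484 ± 25.6 and 238 ± 17.8 CPM in cauda, corpus and caput. Elf5, another epithelial ETS factor, was nearly lacking in corpus, with 9.05, 10.6 and 22.0 CPM in cauda, 0.749, 0.155 and 0.188 CPM in corpus, and 13.5, 13.7 and 12.9 CPM in caput. The oestrogen receptor Esr1, a known inducer of Ltf in the uterus, was lower in cauda (21.2 ± 10.5 CPM) and corpus (12.4 ± 3.85 CPM) than in caput (45.6 ± 1.64 CPM), with log2 changes of -1.09 (SE 0.27, edgeR adjusted p = 0.00408) and -1.91 (SE 0.30, adjusted p = 0.000112).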

How the data were processed

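RNA of 3 cauda, 3 corpus and 3 caput libraries was analysed. Per the labels' protocols, flash-frozen tissue was extracted with Trizol, and stranded mRNA libraries (KAPA) were read for 36 bases from 1 end on a GAIIx sequencer. From the submitters' processing notes come the tool names Bowtie2 (2.2.0), FastQC (0.11.2) and CASAVA (1.8.2) and the build mm10. Which program counted the reads, with which annotation, strand setting and treatment of multiple matches, is not given in the sources used here. Per the file headers, the tables hold raw read counts per gene and library, and, also per the file headers, RPKM made by the authors. Both deposited sheets held the same 216531 RPKM values.

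The 8 genes, the gene lists and the tests were chosen with earlier results of these data known. Counts were fitted in R 4.3.3 with edgeR 4.0.16 (filterByExpr, TMM, 1 mean per segment over all 9 libraries, quasi-likelihood F test, robust = FALSE, limma 3.58.1), two-sided, Benjamini-Hochberg adjusted over 14168 genes at 0.05, a procedure tested on simulated data. The biological coefficient of variation was 10.1%. CPM is the count scaled by TMM library size. Ratios of members are of summed counts over summed library sizes, with 95% exact intervals that cover counting error only. A segment at 0 counts was set to 3 counts, and other counts were used as they stood. No ratio was taken where both segments had 3 counts or fewer. From each of 18 lists up to 5 genes with the highest mean CPM and, per comparison and direction, up to 2 with the widest change past the threshold and at least 5 CPM could be named. For each member with 100 counts, 3 genes of at least 50 CPM with the highest correlation were named. Neighbours on the chromosome, markers at 0, Padi4 and S100a13 were named outside this rule, after their values were seen. Annotation and transcripts were GENCODE M21 (GRCm38, the mm10 build), and promoters were from RefSeq on GRCm38.p6. Alternatives were DESeq2 1.42.0, RLE size factors, no filter, a replicate block, deposited RPKM, summed Lyz1 and Lyz2, and each library left out.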

Additional observations from a re-analysis of the deposited data

How the results depend on the processing

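Genes called in cauda against corpus, cauda against caput and corpus against caput numbered 5552, 7745 and 8173. They numbered 5530, 7739 and 8183 with RLE size factors, 5664, 8178 and 8576 without the filter on low counts, 4574, 6830 and 7282 with DESeq2, and 4773 to 5568, 6991 to 7999 and 7475 to 8324 with single libraries left out. The labels do not say whether the replicate numbers pair the libraries, and the main fit did not use them. Same-numbered libraries of different segments had correlated deviations of -0.0463 to 0.269, and 5 of 9 pairs were over 0.1. For libraries with different numbers the range was -0.245 to 0.19. The same-numbered range lay higher but overlapped this, so pairing is not settled. With the replicate block the calls numbered 5946, 8089 and 8446. Members at least 2-fold higher in corpus than in caput numbered 1 to 2 with single libraries left out. Of 270 values of named list genes, 248 to 265 kept their call, or lack of one, under a given alternative. None that was called in either fit changed direction, and direction was not compared where neither fit made a call. The 12 member ratios recomputed (3 each for Ltf and Lyz1, 2 each for S100a8, S100a9 and Slpi) kept their direction with RLE size factors, deposited RPKM and each library left out. With Lyz1 and Lyz2 summed, log2 was -0.02 against 0.25 in cauda against corpus and 0.21 against 0.63 in cauda against caput. Depth limits Camp, Ngp, Slpi and Pigr, for which 1 count is 0.155 to 0.374 CPM.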
